A study of Mus musculus with 7 samples.

Results

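The loci described here are those to which the deposited expression table gives microRNA names and nothing else. A locus was taken when every symbol in its name field began with Mir and a digit or with Mirlet7, and when none ended in hg or os, the endings of microRNA host genes and opposite-strand transcripts. This rule found 1041 of the 35534 rows in the table, with 986 different names, and every one was kept whatever its level. A locus is a stretch of the genome that the authors' software handled as a unit, so several rows of the table can carry the same locus. Counts of loci below are counts of rows, so a stretch that several rows carry is counted for each of them.

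RNA was measured in the gonadal fat of male CD-1 mice on postnatal day 21, in 4 pups exposed to BDE-47 and 3 control pups, each pup from a different litter. The dams were given BDE-47 in corn oil at a daily dose of 0.2 mg/kg, or corn oil alone, from pregnancy day 8 to postpartum day 21. BDE-47 is a brominated flame retardant of the polybrominated diphenyl ether class. The authors sequenced poly(A)-selected RNA of each pup in single reads of 75 cycles and left out a control library with fewer reads. They deposited 1 value per group and locus, in log2 FPKM, a read count corrected for the length of the transcript and the size of the library. No value per mouse is in the table, so each number below is a group value without a replicate error, and no test between the groups was run.

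A microRNA is made from a long primary transcript, usually capped and polyadenylated, in which it lies within a hairpin. Drosha and Dgcr8 cut the hairpin out in the nucleus, exportin 5 carries it to the cytoplasm, Dicer trims it to a short duplex, and an Argonaute protein takes up the mature strand. Many hairpins lie in introns or exons of host genes, and several can sit on the same primary transcript as a cluster. Poly(A) selection keeps primary transcripts and host messenger RNAs, while mature microRNAs carry no poly(A) tail. The values below are therefore not levels of mature microRNAs.

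The seed, bases 2 to 8 of a mature microRNA, is the stretch that pairs with targets. Of the 100 microRNA genes above 0 FPKM in at least 1 group whose sequences were looked up, 93 had a mature sequence in RefSeq (GRCm38.p6), with 139 mature forms and 132 different seeds. Of these seeds, 2 were shared by several of the genes, and the forms that carry them are shown because the values below are compared within these families. The first is the let-7 seed, here in 6 genes, with the seed in capitals.
let-7c-5p: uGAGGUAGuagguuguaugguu
let-7d-5p: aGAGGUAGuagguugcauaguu
let-7e-5p: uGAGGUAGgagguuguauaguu
let-7f-5p: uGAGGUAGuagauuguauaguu
let-7g-5p: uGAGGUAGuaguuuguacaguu
let-7i-5p: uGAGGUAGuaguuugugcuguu

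The second is the seed of the miR-17 family, here in 3 genes, again in capitals.
miR-106b-5p: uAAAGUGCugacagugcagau
miR-20a-5p: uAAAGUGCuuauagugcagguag
miR-93-5p: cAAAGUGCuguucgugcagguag

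Mir106b and Mir93 lie with Mir25 in a cluster of 498 bases inside Mcm7, a subunit of the replicative helicase, on the minus strand of chromosome 5 (GRCm38). Their hairpins are shown because these neighbours were listed at 0 in different groups. Capitals mark the 2 mature forms of each.
Mir106b: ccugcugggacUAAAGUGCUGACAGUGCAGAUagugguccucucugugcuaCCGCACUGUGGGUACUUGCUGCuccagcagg
Mir93: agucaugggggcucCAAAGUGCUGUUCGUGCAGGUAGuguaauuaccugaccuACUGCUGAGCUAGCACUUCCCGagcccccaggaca
Mir25: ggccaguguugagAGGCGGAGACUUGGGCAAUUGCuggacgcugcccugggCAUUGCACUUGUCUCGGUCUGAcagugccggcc

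The hairpins measure 82 bases in Mir106b, 88 in Mir93 and 84 in Mir25.

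Most microRNA loci had no signal in gonadal fat. The table lists 927 of the 1041 loci (89.0%) at its floor in both groups, a log2 value of -10 that stands for 0 FPKM. Of the other named loci, 2623 of 24750 (10.6%) were at 0 in both groups, and of the loci that hold small nucleolar RNAs alone, 74 of 121 (61.2%) were. The remaining 114 microRNA loci were above 0 in at least 1 group. Of these, 60 were above 0 in both groups, 25 were listed at 0 in control and 29 were listed at 0 in BDE-47. The authors' software marked 979 of the 1041 loci, and 52 of the 114, as having too few alignments to test. Among the loci listed at 0 in a single group, this mark was on 20 of the 25 at 0 in control and on 20 of the 29 at 0 in BDE-47. The table holds no depth per library and the study states only a minimum number of reads per sample, so no limit was computed for a listed 0.

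The loci above 0 were not spread evenly over lengths. The locus column gave a shortest length of 20 bases, a median of 24170 and a longest of 2056826, and 313 loci were under 200 bases. The 3 longest, Mir6336 on chromosome 2, Mir3106 on chromosome 8 and Mir582 on chromosome 13, were listed at 0 in both groups. Most long loci also hold a named gene, so the length is not that of the microRNA transcript. In the class under 100 bases, 8 of 239 loci (3.35%) were above 0, and at 100 bases or more but under 200, 7 of 74 (9.46%) were. From 200 to under 1000 bases 7 of 11 (63.6%) were above 0, and at 1000 bases or longer 92 of 717 (12.8%) were. Other named loci of the same classes were above 0 in 0 of 12, 0 of 22, 620 of 1453 (42.7%) and 21507 of 23263 (92.5%) cases.

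The rows that shared a locus also divided them. Of 309 microRNA loci that no other locus overlapped, 16 (5.18%) were above 0, and of 685 that shared their locus with a named gene, 76 (11.1%) were. Where only other microRNA rows shared the locus, 15 of 39 (38.5%) were above 0, and where only unnamed rows did, 7 of 8 (87.5%) were. A lone microRNA locus shorter than a full sequencing read was never above 0, with 0 of 88 under 75 bases. Of lone loci of at least 75 but under 200 bases, 15 of 207 (7.25%) were. Some of these short loci had no matched RefSeq hairpin. Over all 791 loci with a RefSeq hairpin inside them, 5 of 333 hairpins under 75 bases (1.5%) and 87 of 458 of 75 bases or longer (19%) were above 0. Those 5 short ones, Mir126a, Mir1839, Mir99a, Mir1956 and Mir7068, all shared their locus with a named gene.

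The place of the hairpin in the GENCODE vM21 annotation gave a further division. Hairpins within an exon on the same strand were above 0 at 33 of 116 loci (28.4%) and those in an exon of the opposite strand at 7 of 23 (30.4%). Hairpins in introns were above 0 at 30 of 409 loci (7.33%) on the same strand and at 9 of 52 (17.3%) on the opposite strand. Hairpins between genes were above 0 at 13 of 191 loci (6.81%). The sources used here do not say whether reads were counted by strand, so reads of a hairpin and of a gene that overlaps it on the other strand may not be told apart. The number in the name made little difference, with 48 of 476 loci (10.1%) numbered under 1000 and 66 of 565 (11.7%) numbered 1000 or more above 0.

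**Figure D1:**
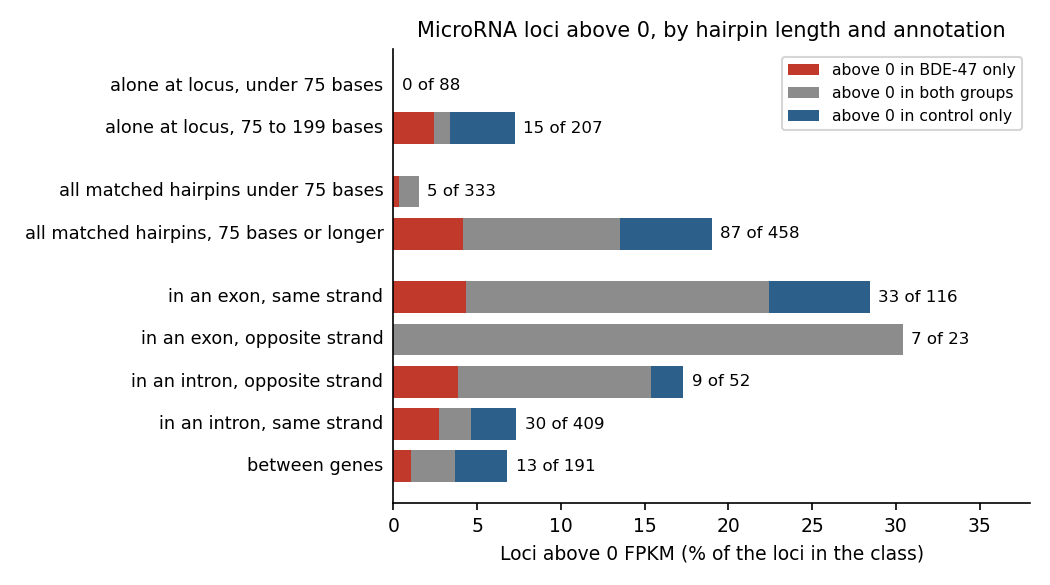
Share of microRNA loci above 0 FPKM (percent of the class, horizontal axis) by length of lone loci, by hairpin length and by annotation. Each bar is divided into loci above 0 in BDE-47 only, in both groups and in control only. The counts beside the bars give loci above 0 of all loci in the class. They run from 0 of 88 for lone loci under 75 bases to 7 of 23 for hairpins in an exon of the opposite strand.

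Levels among the loci above 0 covered similar ranges in both groups. In the 60 loci above 0 in both groups, BDE-47 values had a median of 8.52 FPKM (range 0.215 to 609) and control values a median of 7.34 FPKM (range 0.316 to 380). The loci listed at 0 in a single group were not low in the other one. The 25 that were at 0 in control had a median of 7.73 FPKM in BDE-47 (range 1.34 to 41.1), and the 29 at 0 in BDE-47 had a median of 8.06 FPKM in control (range 1.53 to 45.9). FPKM divides by length, so few reads give a large value on a short hairpin. Across the 16 lone loci, length and mean FPKM had a Spearman rho of -0.69, and across all 114 it was -0.06. These loci share the same libraries, and the correlations are descriptions only.

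The highest levels belonged to hairpins in loci shared with a gene. Mir703, in an intron and on the opposite strand, had 609 FPKM in BDE-47 and 380 FPKM in control, and Mir6340, opposite an exon of Rab22a, had 236 FPKM in BDE-47 and 218 FPKM in control. Mir130c, opposite an exon of Kdelc2, had 113 FPKM in BDE-47 and 155 FPKM in control. Mir1896, in an exon on the same strand, had 164 FPKM in BDE-47 and 35.8 FPKM in control. Mir762 had 105 FPKM in BDE-47 and 53.1 FPKM in control, opposite an exon of Bcl7c, whose own row was at 12.6 FPKM in BDE-47 and 14.4 FPKM in control. Of these 5, Mir1896 alone lies on the strand of the annotated gene and alone reached a 2-fold difference between the groups. Next in mean level were Mir6357, Mir142b, Mir6990, Mir1901 and Mirlet7d. Mir1901, on chromosome 18, had 29 FPKM in BDE-47 and 31.8 FPKM in control. The Rab22a row (27.3 FPKM in BDE-47 and 25.5 FPKM in control) and the Kdelc2 row (11.6 FPKM in BDE-47 and 11 FPKM in control) were below those of the hairpins.

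Values were higher in BDE-47 about as often as they were lower. Of the 60 loci above 0 in both groups, 29 had a log2 ratio of BDE-47 over control above 0 and 31 below 0, with a median of -0.03 (quartiles -0.46 and 0.43), beside a median of -0.01 over all loci. At least 2-fold higher in BDE-47 were 7 of the 60 (11.7%), against a background of 7.31% of the 29236 loci of the table above 0 in both groups. At least 2-fold lower were 8 (13.3%), against a background of 12.3%. The shares are near the background, although the median size of the log2 ratio was 0.465 in the microRNA loci and 0.29 over all loci.

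With a locus at 0 in a single group counted as past 2-fold, 32 of the 114 (28.1%) were higher in BDE-47, against a background of 11.2% of 31984 loci, and 37 (32.5%) were lower, against a background of 15.3%. Both directions thus held about the same number of microRNA loci. The study's filter, a gene name and over 1 FPKM in at least 1 group, kept 106 of the 1041 loci, and a locus that passes it through a single group differs by construction. Past it, 32 (30.2%) were at least 2-fold higher and 35 (33.0%) at least 2-fold lower, with a background of 1.04% and 4.24% of 14262 loci. Most of these counts are loci listed at 0 in a group: 25 (23.6%) at 0 in control and 29 (27.4%) at 0 in BDE-47, whereas over all 14262 loci 33 (0.231%) and 57 (0.4%) were. In the 52 loci past the filter with a value in both groups, 7 were at least 2-fold higher and 6 at least 2-fold lower, and 26 ratios lay on each side of 0. Their median size of the log2 ratio was 0.465, beside 0.15 over the 14172 such loci of the whole table. Of the 14262 loci, 148 were at least 2-fold higher, 33 of them at 0 in control, and 605 were lower, 57 of them at 0 in BDE-47.

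The share of loci at least 2-fold apart fell with rising level in the other loci, but not steadily in the few microRNA loci of each class. Among loci with a mean of 5 to 20 FPKM and above 0 in both groups, 7 of 18 microRNA loci (38.9%) were at least 2-fold apart, beside 5.72% of all other loci. At a mean of 20 FPKM or more, 3 of 17 (17.6%) were, beside 4.86%. Under 1 FPKM, 3 of 9 (33.3%) were, beside 34%, and from 1 to 5 FPKM 2 of 16 (12.5%) were, beside 17.1%. FPKM divides by length, so at equal FPKM a shorter transcript holds fewer reads than a longer one. Read counts per locus were not used, and the part of this in the spread was not tested.

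**Figure D2:**
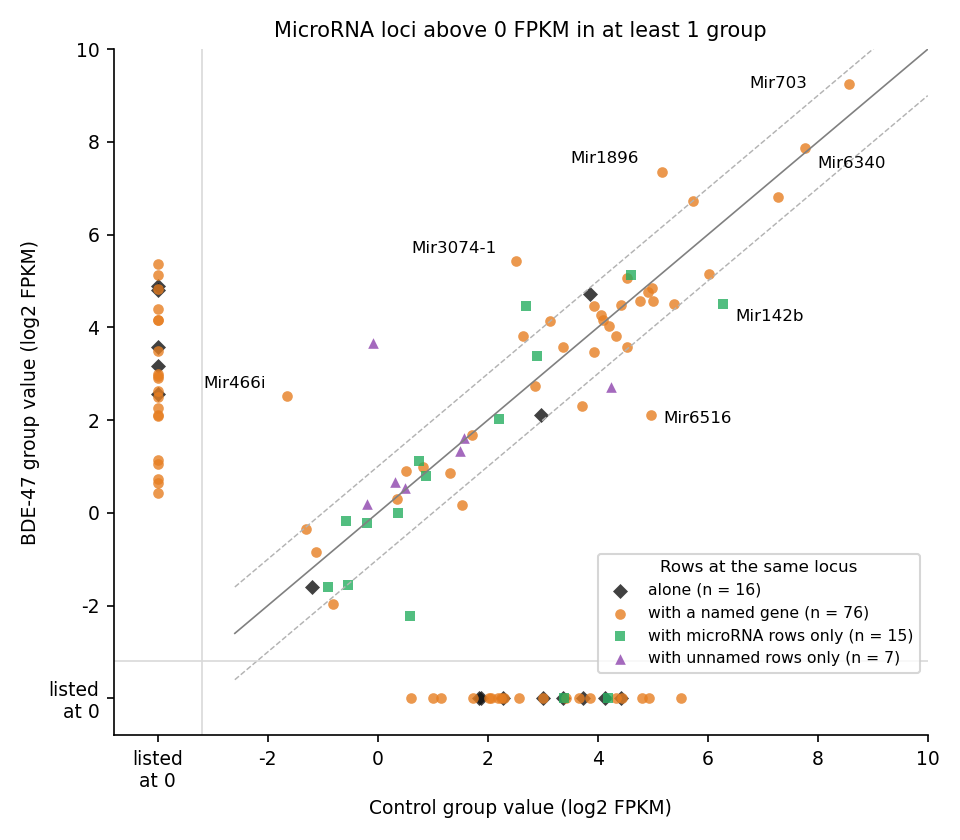
Group values of the 114 microRNA loci above 0 in at least 1 group, in log2 FPKM, with BDE-47 on the vertical and control on the horizontal axis, and with loci listed at 0 in a group drawn in a band at its edge. The solid line marks equal values, the dashed lines 2-fold differences, and symbols show which other rows share the locus. The 25 loci at 0 in control and 29 at 0 in BDE-47 reach as high as most loci above 0 in both groups.

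Among the loci with a value in both groups and over 1 FPKM in at least 1, the largest ratios towards BDE-47 were at Mir466i, Mir3061, Mir3074-1 and Mir1896. Mir466i, a member of a repeat-rich family, had 5.7 FPKM in BDE-47 and 0.316 FPKM in control, a log2 ratio of 4.17. It was the only one of 78 loci of the Sfmbt2-type families above 0. Mir3074-1, on chromosome 13, had 43.1 FPKM in BDE-47 and 5.7 FPKM in control (log2 ratio 2.92). It lies in an intron of Fancc, a Fanconi anaemia DNA repair gene, whose row was at 2.45 FPKM in BDE-47 and 2.25 FPKM in control. Its hairpin shares 68 bases with Mir24-1 on the opposite strand. Mir1896, among the highest levels above, had a log2 ratio of 2.20. It lies on chromosome 13 in a locus of 144111 bases that 10 rows share.

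Smaller ratios in the same direction followed. Mir6358, on chromosome 18, had 22.2 FPKM in BDE-47 and 6.5 FPKM in control (log2 ratio 1.77). Mir1898 had 14.1 FPKM in BDE-47 and 6.23 FPKM in control (1.18), in an intron of Zfr, which encodes a zinc finger RNA-binding protein, with its own row at 31.1 FPKM in BDE-47 and 29.7 FPKM in control. Mir6395 had 17.6 FPKM in BDE-47 and 8.75 FPKM in control (1.01). Below 2-fold, the log2 ratio was 0.99 at Mir762, 0.86 at Mir2861 (26.4 FPKM in BDE-47 and 14.5 FPKM in control) and 0.68 at Mir703.

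Towards control, the largest ratios among the same loci were at Mir6516, Mir7666 and Mir142b. Mir6516, in an exon of the small nucleolar RNA host gene Snhg20 on chromosome 11, had 4.32 FPKM in BDE-47 and 31.1 FPKM in control, a log2 ratio of -2.85. The Snhg20 row itself was at 20.1 FPKM in BDE-47 and 20 FPKM in control. Mir7666 had 0.215 FPKM in BDE-47 and 1.49 FPKM in control (log2 ratio -2.80). Mir6377 had 6.59 FPKM in BDE-47 and 18.9 FPKM in control (-1.52), and Mir3058 had 4.92 FPKM in BDE-47 and 13.2 FPKM in control (-1.42) in an intron of Nudt4, which encodes a diphosphoinositol phosphatase and had a row of 101 FPKM in BDE-47 and 95.7 FPKM in control. Mir7667 had 1.13 FPKM in BDE-47 and 2.89 FPKM in control (-1.36). Less than 2-fold apart were Mir1839 (11.9 FPKM in BDE-47 and 23.3 FPKM in control), Mir6990 (22.8 FPKM in BDE-47 and 41.9 FPKM in control), Mir8091 (4.32 FPKM in BDE-47 and 7.84 FPKM in control) and Mir6357 (35.8 FPKM in BDE-47 and 64.9 FPKM in control), with log2 ratios from -0.97 to -0.86.

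Mir142b was the sole locus above 0 among 11 of microRNAs known from blood and immune cells. It had 22.6 FPKM in BDE-47 and 77.7 FPKM in control, a log2 ratio of -1.78. Its hairpin shares 64 bases with that of Mir142, a microRNA of blood cells, on the opposite strand, and the Mir142 row of the same locus was listed at 0 in both groups. Of 8 macrophage markers, all were above 0 in both groups and 0 were 2-fold apart. Their median log2 ratio was -0.485 and their summed level was 691 FPKM in BDE-47 and 1142 FPKM in control. The part of such cells in the Mir142b value was not tested, and in bulk tissue fewer cells of a type and less RNA per cell cannot be told apart.

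Among the loci listed at 0 in control, the highest in BDE-47 were Mir7070 at 41.1 FPKM, Mir677 at 34.8, Mirlet7e at 29.7, Mir7-1 at 28.2, Mir27a at 28.1 and Mir106b at 21. Mir677 lies in an intron of Atp5b, a subunit of the mitochondrial ATP synthase, whose row was at 809 FPKM in BDE-47 and 771 FPKM in control. Mir7-1 lies in an intron of Hnrnpk, an RNA-binding protein gene, at 164 FPKM in BDE-47 and 149 FPKM in control. Among those listed at 0 in BDE-47, the highest in control were Mir324 at 45.9 FPKM, Mir7075 at 30.7, Mir25 at 27.9, Mir103-2 at 21.7, Mir1932 at 21.4 and Mir7093 at 20.3. Mir7075 lies in an intron of Terf2, which encodes a telomere-binding protein, and Mir103-2 in one of Pank2, a pantothenate kinase gene. The host rows differed little, with Terf2 at 10.8 FPKM in BDE-47 and 9.65 FPKM in control and Pank2 at 12.3 FPKM in BDE-47 and 10.9 FPKM in control. No fold can be given against a value listed at 0.

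Hairpins of the same cluster differed in which group they were listed at 0. With hairpins on the same strand within 10000 bases taken as a cluster, there were 55 clusters with 185 symbols, of which 45 clusters had no member above 0, 5 had a single one and 5 had at least 2. In 2 of these, members were listed at 0 in opposite groups. Mir106b had 21 FPKM and Mir93 5.62 FPKM in BDE-47 with both listed at 0 in control, whereas Mir25 was listed at 0 in BDE-47 and had 27.9 FPKM in control. These are the hairpins printed above, and they lie in the same Mcm7 transcript, whose row was at 10.6 FPKM in BDE-47 and 9.58 FPKM in control. The rows of Mir106b and Mir93, unlike that of Mir25, were marked as having too few alignments to test. Cops6, a COP9 signalosome subunit gene at the same locus, was at 92.4 FPKM in BDE-47 and 89.9 FPKM in control.

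In the miR-17~92 cluster on chromosome 14, known for its part in cell proliferation, Mir20a had 8.94 FPKM in BDE-47 and was listed at 0 in control. Mir18, on the same primary transcript, was listed at 0 in BDE-47 and had 3.58 FPKM in control, and Mir17 and Mir19a were listed at 0 in both groups. These 4 hairpins span 593 bases. The row that joins the host gene Mir17hg with Mir19b-1, which is not among the 1041 loci, had 7.21 FPKM in BDE-47 and 1.45 FPKM in control, a log2 ratio of 2.31. Of the 13 loci of this cluster and its paralogues, 5 were above 0, of which 3 were above 0 in BDE-47 only and 2 in control only. The 3 were the genes of the miR-17 seed shown above, Mir106b, Mir20a and Mir93. The authors' software marked the rows of all 3, and that of Mir18, as having too few alignments to test. These values are not of the mature forms that carry the seed. The other 3 genes with this seed, Mir17, Mir20b and Mir6383, were listed at 0 in both groups.

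Other clusters also held members above 0 beside members listed at 0 in both groups. Mir27a had 28.1 FPKM in BDE-47 and was listed at 0 in control, its neighbour Mir24-2 had 4.08 FPKM in BDE-47 and 4.63 FPKM in control, and Mir23a was at 0 in both. On the X chromosome, Mir221 had 5.94 FPKM in BDE-47 and was listed at 0 in control, and Mir222 was at 0 in both. Of the imprinted Dlk1-Dio3 region, a large microRNA array expressed from the maternal chromosome, 1 of 51 loci was above 0. That locus, Mir453, was listed at 0 in BDE-47 and had 14.5 FPKM in control.

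**Figure D3:**
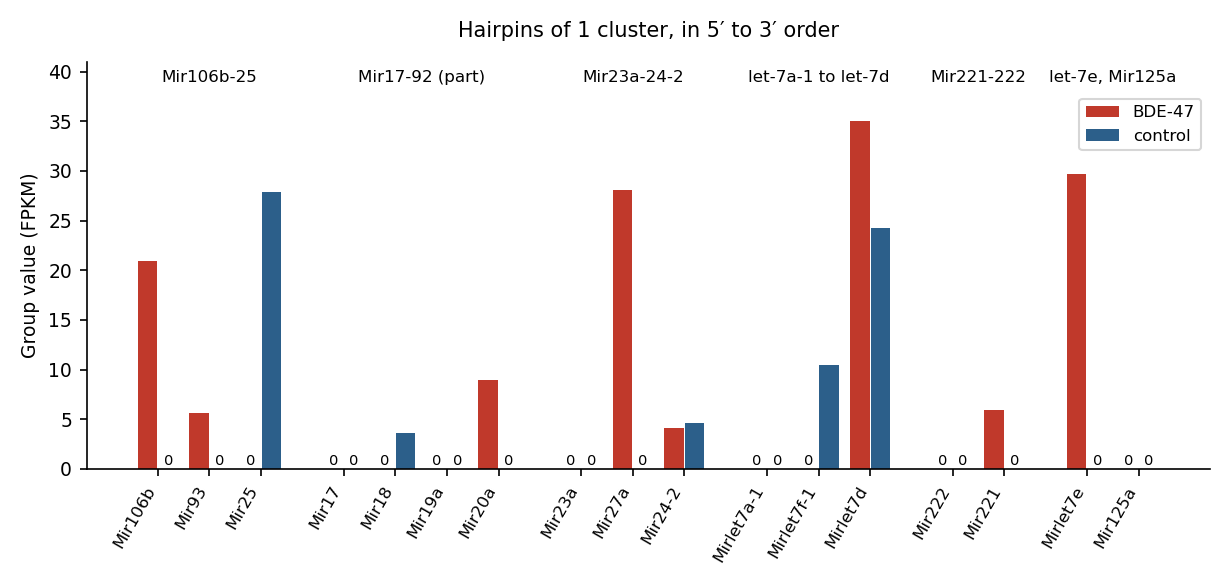
Group values (FPKM, vertical axis, from 0) of hairpins in 6 clusters, in their order along the transcript, with the BDE-47 bar left of the control bar and a 0 printed where a group is listed at 0. For Mirlet7d the higher of its rows is drawn. In the Mir106b cluster the bars of Mir106b and Mir93 stand in BDE-47 only and that of Mir25, at 27.9 FPKM, in control only.

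The let-7 family, which restrains growth and is abundant in mature tissues, was above 0 at 7 of its 13 loci, with 4 above 0 in both groups, 2 listed at 0 in control and 1 listed at 0 in BDE-47. Mirlet7d had 35 FPKM in BDE-47 and 24.3 FPKM in control (log2 ratio 0.53) in a row, and 1.73 FPKM in BDE-47 and 1.83 FPKM in control (log2 ratio -0.08) in a second row of the same locus. Its neighbour Mirlet7f-1 was listed at 0 in BDE-47 and had 10.5 FPKM in control. Mirlet7e had 29.7 FPKM and Mirlet7g 7.94 FPKM in BDE-47, both at 0 in control. Mirlet7c-1 had 1.88 FPKM in BDE-47 and 1.43 FPKM in control, and Mirlet7i had 1 FPKM in BDE-47 and 1.28 FPKM in control. The mature forms above differ by few bases, but their hairpins lie at separate places of the genome, and these values are not of mature forms.

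Among microRNAs known from fat cells, 10 of 37 loci were above 0, with Mir365-2 and Mir34a counted in 2 rows each. Of the 10, 2 were at least 2-fold higher and 3 at least 2-fold lower, all 5 of them listed at 0 in a group. Over all 114 microRNA loci above 0, 28.1% were higher and 32.5% lower, so these counts do not set the list apart. In the list, Mir27a, which restrains fat cell differentiation, and Mir221 made up the higher ones. Mir103-2, which lies in a pantothenate kinase gene, Mir196a-1, from a Hox gene cluster, and Mir378b made up the lower ones. Of the 5, all but Mir27a were marked as having too few alignments to test. Mir196a-1 was listed at 0 in BDE-47 with 13.3 FPKM in control, and Mir378b at 0 with 12.6 FPKM. Mir365-2, known from brown fat, had 10.4 FPKM in BDE-47 and 7.41 FPKM in control. Mir34a, a target of p53, had 3.05 FPKM in BDE-47 and 2.95 FPKM in control, and Mir30d had 0.332 FPKM in BDE-47 and 0.438 FPKM in control. The 12 fat cell markers were all above 0 with 0 of them 2-fold apart, and Fabp4, the fatty acid carrier of fat cells, was at 31652 FPKM in BDE-47 and 32996 FPKM in control.

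Lists known from other tissues were mostly listed at 0. So were microRNA loci as a whole, with 927 of 1041 (89.0%) at 0 in both groups. Most of the lists are small, so these counts do not set them apart from other microRNA loci. Of 9 loci of striated muscle microRNAs, Mir1b alone was above 0, with 1.65 FPKM in BDE-47 and 0 listed in control. Mir126a, the endothelial microRNA, had 33.6 FPKM in BDE-47 and 23.3 FPKM in control, and its host Egfl7 was at 58.1 FPKM in each group. None of 5 liver and intestine loci, 5 of the miR-200 family of epithelia, 21 of the X-linked testis cluster and 3 of the miR-290 cluster of embryonic stem cells was above 0. Mir122, the main microRNA of hepatocytes, was among those listed at 0 in both groups. A listed 0 does not show that the microRNA was absent. Of 10 hepatocyte markers, 9 were at least 2-fold lower in BDE-47. Alb, the serum albumin gene, was at 24.6 FPKM in BDE-47 and 362 FPKM in control. Of 9 epididymis markers, 7 were above 0 and all 7 were lower in BDE-47, with a summed level of 0.264 FPKM in BDE-47 and 42.2 FPKM in control. Of 8 skeletal muscle markers, 1 was at least 2-fold higher and 1 at least 2-fold lower in BDE-47, with a median log2 ratio of -0.275. Acta1, the skeletal actin gene, was at 28.6 FPKM in BDE-47 and 120 FPKM in control and made up most of their summed level of 31.3 FPKM in BDE-47 and 123 FPKM in control. The part of these tissues in the microRNA values was not tested.

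Genes around a hairpin mostly differed little between the groups, whatever the direction of the hairpin. Of the 114 loci, 54 had a row for the gene in which the hairpin lies (51 rows). Of these genes, 1 was at least 2-fold higher and 2 at least 2-fold lower. Over all loci above 0 in both groups, 7.31% were at least 2-fold higher and 12.3% at least 2-fold lower. Among named loci over 1 FPKM in at least 1 group the shares were 1.04% and 4.24%, near those of the host genes. The higher gene, Pabpn1l, was at 0.0477 FPKM in BDE-47 and 0.0175 FPKM in control. Of the lower ones, 1 was a row that joins Wdfy2 with Mir8098. The 16 hairpins that were at least 2-fold higher in BDE-47 lay in genes with a median log2 ratio of 0.07 (range -1.4 to 0.65), and the 18 that were at least 2-fold lower lay in genes with a median of 0.09 (range -0.51 to 1.45). In the 25 cases with a ratio for both, Spearman's rho was 0.06 for the ratios and -0.13 for the levels, as a description across loci of the same libraries. The levels of the host genes were compared between hairpins above 0 and at 0. Among hairpins in introns on the same strand, the gene's median was 11.6 FPKM where the hairpin was above 0 (27 loci) and 8.80 FPKM where it was at 0 in both groups (338 loci). For exons on the same strand the gene's medians were 20.6 FPKM where the hairpin was above 0 (16 loci) and 20.4 FPKM where it was at 0 in both groups (37 loci). For hairpins on the opposite strand of the gene they were further apart. In introns of the opposite strand the gene's median was 9.99 FPKM where the hairpin was above 0 (5 loci) and 3.35 FPKM where it was at 0 in both groups (30 loci), and in exons of the opposite strand it was 12.4 FPKM (6 loci) and 0.0643 FPKM (9 loci). Each gene level here is the mean of the group values. Mir1249 had 6.63 FPKM in BDE-47 and 7.26 FPKM in control and lies in an exon of 5031439G07Rik, whose row was at 33.6 FPKM in BDE-47 and 159 FPKM in control.

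**Figure D4:**
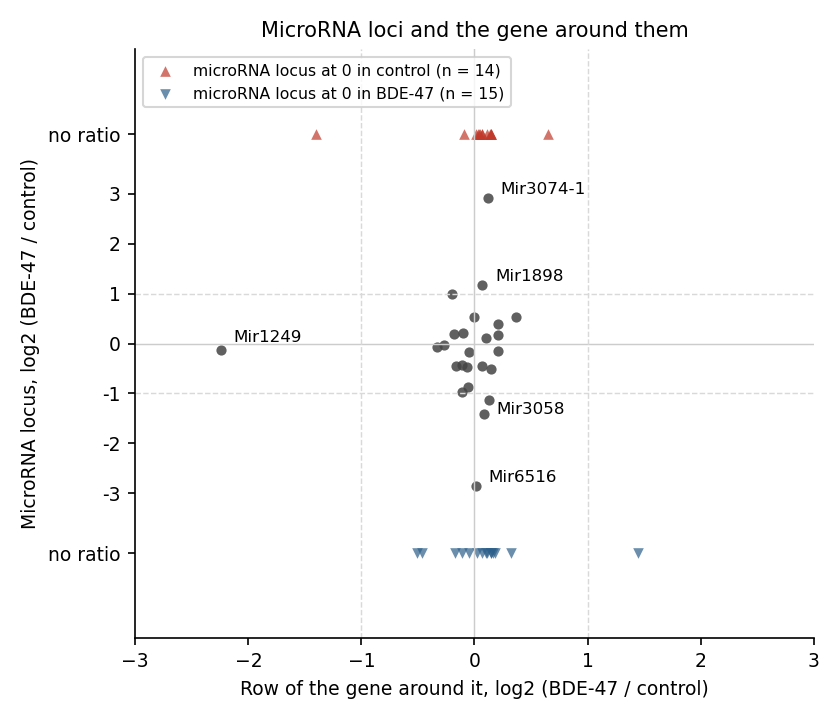
Log2 ratio of BDE-47 over control of the microRNA locus (vertical axis) against that of the row of the gene around it (horizontal axis), with 25 loci as points and loci listed at 0 in a group as triangles at the top (14, at 0 in control) and the bottom (15, at 0 in BDE-47). Dashed lines mark 2-fold. Most genes lie near 0 whatever the hairpin did, with Spearman's rho at 0.06 for the points.

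Several symbols appeared in more than 1 row, and for some of them the rows differed although they carried the same locus and the same name. Of 30 such symbols, 8 had 2 rows above 0, 10 had 1 and 12 had none. Mir3061 had 12.6 FPKM in BDE-47 and 0.946 FPKM in control in a first row (log2 ratio 3.74) and 1.45 and 1.41 FPKM in a second. Both rows span 4134 bases of chromosome 11 from 52123634 to 52127767, and the hairpin of 91 bases is annotated in an exon of Ppp2ca, the catalytic subunit of protein phosphatase 2A. The Ppp2ca row, which ends at 52123550, was at 124 FPKM in BDE-47 and 115 FPKM in control. The difference at Mir3061 was thus in a single one of its rows.

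The same held for Mir6358 and Mir6377. Mir6358 had 22.2 FPKM in BDE-47 and 6.5 FPKM in control in a row and 0.332 and 0.536 FPKM in the other. Mir6377 had 6.59 FPKM in BDE-47 and 18.9 FPKM in control, against 1.15 and 0.877 FPKM in its other row. Mir425 was listed at 0 in BDE-47 with 18.3 FPKM in control in a row, and had 0.342 and 0.683 FPKM in the other. The rows of Mir34a were alike, with 3.05 and 2.95 FPKM in the first and 2.53 and 2.81 FPKM in the second.

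**Figure D5:**
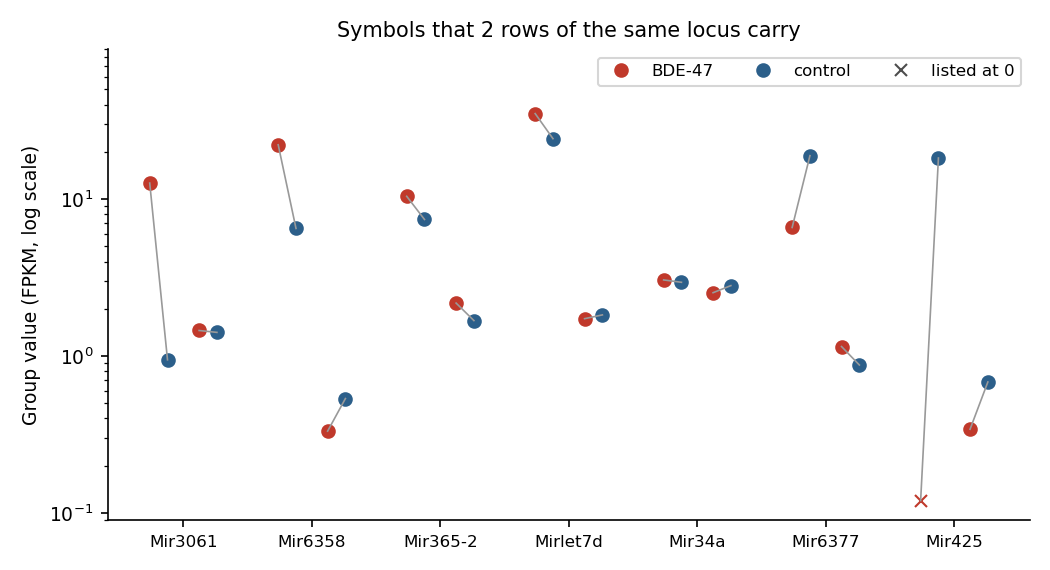
Group values (FPKM, log scale) of 7 symbols that 2 rows of the same locus carry, the BDE-47 point left of the control point in each row and joined to it, with a cross where a group is listed at 0. The first row of Mir3061 is at 12.6 FPKM in BDE-47 and 0.946 FPKM in control and its second at 1.45 FPKM in BDE-47 and 1.41 FPKM in control.

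Most genes that make and use microRNAs were near equal in the groups, with the joined row of Dgcr8 an exception. Of 24 loci of processing and effector genes, all above 0 in both groups, 2 were at least 2-fold higher in BDE-47 and 0 lower. Over all loci above 0 in both groups, 7.31% were at least 2-fold higher and 12.3% at least 2-fold lower. The median log2 ratio of the 24 was 0.075. Drosha was at 14.6 FPKM in BDE-47 and 12.8 FPKM in control, Xpo5 (exportin 5) at 8.46 FPKM in BDE-47 and 8.06 FPKM in control. Dicer1 was at 7.16 FPKM in BDE-47 and 6.41 FPKM in control, and Ago2, an Argonaute, at 7.11 FPKM in BDE-47 and 6.96 FPKM in control. The helicase gene Ddx5, in a row joined with Mir3064, was at 280 FPKM in BDE-47 and 258 FPKM in control, and its relative Ddx17 at 113 FPKM in BDE-47 and 108 FPKM in control. Ran, the transport partner of exportin 5, was at 56.5 FPKM in BDE-47 and 57.3 FPKM in control. The 2 higher loci were chosen for naming after their values were seen. Dgcr8, in a row joined with Mir1306 and Gm24572, was at 26.9 FPKM in BDE-47 and 8.57 FPKM in control (log2 ratio 1.65), and Lin28b, which blocks let-7 processing, at 0.0276 FPKM in BDE-47 and 0.00923 FPKM in control.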

How the data were processed

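Gonadal fat RNA of 7 male mice was measured. The authors sequenced a library per mouse and mapped reads to mm10 with TopHat2. They computed 1 FPKM value per group from its libraries with Cufflinks and Cuffdiff 2.1.1. They deposited log2 values of each group's FPKM to 2 decimals, with -10 for 0 FPKM. The deposited log2 ratio, q-value and significance columns hold the authors' own comparison and were not used. The sources used here name no annotation or strand setting, and give for depth only a minimum number of reads per sample.

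FPKM is 2 to the power of the deposited value, and log2 ratios were recomputed from the group columns, with no pseudocount. Locus starts, which count from 0, were raised by 1 base. Hairpins and mature sequences came from RefSeq (GRCm38.p6), with 791 loci matched. Mature forms were not looked up for chromosome 18, and none of its 7 loci above 0 had a matched hairpin. The shares by hairpin length and placement therefore leave these loci out. Gene placement came from GENCODE vM21 (GRCm38, the assembly of mm10). Counts of 2-fold loci were set beside those over all loci of the table.

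Named loci were chosen by a fixed rule: the 10 highest means, the 10 highest and 10 lowest ratios among loci over 1 FPKM in at least 1 group and above 0 in both, up to 6 at 0 in each group, the 3 longest and the 3 highest of each of 12 microRNA lists and of the marker lists. Other loci, among them cluster neighbours, loci with several rows and host genes, were named after their values were seen. The members and lists were chosen with earlier results of these data known. Alternatives changed pseudocount, scaling, fold, filter, length and copies. The counting code was tested on simulated data. Python 3.11.15, pandas 2.3.3, numpy 2.4.6 and matplotlib 3.10.9 were used.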

Additional observations from a re-analysis of the deposited data

How the results depend on the processing

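Of 60 alternative values for the counts of 2-fold loci and the median ratio, 47 stayed within 1.5 times the reported count, or within 0.1 of the reported log2 median, and 13 did not. Some of the 47 could not differ: loci with a single microRNA symbol were the same 114 and 106 loci, and the fold threshold does not enter the median. Each of the 13 takes in fewer loci, so a count can move through the number of loci alone. Loci under 200 bases left 5 higher and 8 lower of 15 above 0, with or without the filter, and so did lone loci past the filter. Loci that the authors' software could test, an alternative chosen after seeing the data, left 10 higher and 16 lower of 62, or 10 higher and 14 lower of 56 past the filter. Over 1 FPKM in both groups, which removes every locus at 0 in a group, left 5 higher (10.6%) and 5 lower (10.6%) of 47. Over 5 FPKM in at least 1 group left 21 lower of 70 (30.0%, beside 33.0% of the 106 past the filter), with 24 higher. Shares over all loci of the table were not computed under these restrictions. Past the study's filter alone they were 1.04% higher and 4.24% lower. Centring moved the ratios by 0.02 log2. The counts of higher and lower loci therefore rest mostly on loci listed at 0 in a single group. No paired analysis was possible because the table holds no value per mouse, and for the same reason no mouse could be left out. Depth limits which hairpins can show any signal, and the table holds none per library.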

Other observations

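Among the loci above 0, 5 microRNA genes have a hairpin that overlaps another microRNA hairpin on the opposite strand. Besides Mir142b and Mir3074-1, these are Mir126a (58 bases shared with Mir126b), Mir24-2 (83 bases shared with Mir3074-2) and Mir3065 (87 bases shared with Mir338). The rows of Mir126b, Mir3074-2 and Mir338 were listed at 0 in both groups, so 1 row of each of these pairs was above 0. Mir3065 had 3.2 FPKM in BDE-47 and 3.27 FPKM in control, in an intron opposite to Aatk at 7.46 FPKM in BDE-47 and 9 FPKM in control.

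By chromosome, microRNA loci above 0 were most frequent on chromosome 13, with 8 of 31 (25.8%), and least frequent on chromosome X, with 2 of 76 (2.63%). On chromosome 18, where 7 of 29 loci were above 0, 3 were listed at 0 in control and 0 in BDE-47. Chromosome 11 had 15 of 89 above 0, of which 6 were listed at 0 in BDE-47 and 1 in control. These are descriptions of a single value per group, and were chosen after the values were seen.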
